A study of Mus musculus with 10 samples.

Results

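The genes described here encode the signalling chains of the T cell receptor (TCR) complex, *Cd3g*, *Cd3d*, *Cd3e* and *Cd247*, and the pre-TCR alpha chain, *Ptcra*. They were chosen by name, and their rows were read from each of 10 RNA sequencing (RNA-seq) count tables from mouse cells. The tables listed 24062 genes, of which 12221 were tested, and all 5 chosen genes were among those tested. The cells were grown from Lin-SCA1+KIT+ (LSK) marrow progenitors of C57BL/6J mice, in medium that contained SCF, FLT-3 ligand, IL-6 and IL-11 for every group. The no Notch control (IgG, 4 libraries, labelled day 14 and D1, D2, R1 and R2) was cultured on human IgG at 5 µg/mL and was not sorted into stages as far as the sources state. The double-negative (DN) stages came from cultures on immobilized Notch ligand, Delta1ext-IgG at 5 µg/mL, and were sorted as DN1 (KIT++CD44+CD25-, 2 libraries), DN2a (KIT++CD44+CD25+, 2 libraries) and DN2b (KIT+CD44loCD25+, 2 libraries). DN2a and DN2b cells came from cultures that also received IL-7 at 100 ng/mL from day 14, whereas DN1 cells came from cultures without it, so stage and IL-7 cannot be told apart in DN2a or DN2b over DN1, nor Notch ligand and IL-7 in DN2a or DN2b over the control, for which the sources state no IL-7. Each DN stage had a library with a 2012 date and a library with a 2013 date in its label, and DN2a and DN2b shared the same date within each year. DN1 was dated earlier in the same year, so stage, date and IL-7 cannot be told apart in DN2a or DN2b over DN1. The control labels carried no date, so date and Notch ligand cannot be told apart in comparisons with the control.

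The TCR on the cell surface binds its ligand through variable chains that cannot signal alone. The invariant chains CD3 gamma, CD3 delta and CD3 epsilon and the zeta chain, product of *Cd247*, carry the immunoreceptor tyrosine-based activation motifs (ITAMs) that are phosphorylated by the kinase LCK and then bound by the kinase ZAP70. In the thymus the first version of this receptor is the pre-TCR, in which the pre-TCR alpha chain stands in for the TCR alpha chain and pairs with a newly rearranged beta chain, and signalling through it is required to pass the beta-selection checkpoint that follows the DN2 stages.

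*Cd3g*, *Cd3d* and *Cd3e* form a cluster on chromosome 9, whereas the remaining genes lie alone. In the GENCODE annotation of mm10, the build of the count tables, *Cd3g* spans chr9:44969572-44980431 on the minus strand, *Cd3d* spans chr9:44981786-44987339 on the plus strand and *Cd3e* spans chr9:44998740-45009627 on the minus strand. The starts of *Cd3g* and *Cd3d* face away from each other and lie 1355 bases apart, and the 3 genes fill 40056 bases. *Cd247* spans chr1:165788681-165877277 on the plus strand and *Ptcra* spans chr17:46755663-46763712 on the minus strand. The 250 bases before each start are shown because the study examined the CpG content of Notch-responsive promoters and because the genes differed in the stage at which they reached a given level. They were taken from RefSeq on GRCm38.p6, read 5′ to 3′ toward the gene, with each CG dinucleotide in capitals. The windows are chr9:44980432-44980681 (minus strand) for *Cd3g*, chr9:44981536-44981785 (plus) for *Cd3d*, chr9:45009612-45009861 (minus) for *Cd3e*, chr1:165788431-165788680 (plus) for *Cd247* and chr17:46763713-46763962 (minus) for *Ptcra*.
Cd3g: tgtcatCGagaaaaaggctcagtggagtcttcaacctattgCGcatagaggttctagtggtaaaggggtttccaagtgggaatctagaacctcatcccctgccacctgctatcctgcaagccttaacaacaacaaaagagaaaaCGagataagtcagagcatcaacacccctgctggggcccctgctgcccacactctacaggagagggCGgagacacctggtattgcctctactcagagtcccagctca
Cd3d: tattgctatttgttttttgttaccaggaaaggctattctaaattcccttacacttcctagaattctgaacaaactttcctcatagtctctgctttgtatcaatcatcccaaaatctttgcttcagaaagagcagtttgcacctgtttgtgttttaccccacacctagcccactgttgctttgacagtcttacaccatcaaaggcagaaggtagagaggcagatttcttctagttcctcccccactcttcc
Cd3e: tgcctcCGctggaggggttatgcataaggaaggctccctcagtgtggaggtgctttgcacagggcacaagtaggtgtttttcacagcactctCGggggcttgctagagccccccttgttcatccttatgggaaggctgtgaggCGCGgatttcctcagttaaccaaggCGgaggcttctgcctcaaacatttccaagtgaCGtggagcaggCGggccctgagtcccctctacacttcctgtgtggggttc
Cd247: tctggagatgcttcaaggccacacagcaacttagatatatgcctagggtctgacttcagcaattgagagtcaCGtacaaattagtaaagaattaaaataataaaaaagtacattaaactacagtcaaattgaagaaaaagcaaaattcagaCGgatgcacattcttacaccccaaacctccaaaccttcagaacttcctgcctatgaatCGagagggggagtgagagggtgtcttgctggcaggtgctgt
Ptcra: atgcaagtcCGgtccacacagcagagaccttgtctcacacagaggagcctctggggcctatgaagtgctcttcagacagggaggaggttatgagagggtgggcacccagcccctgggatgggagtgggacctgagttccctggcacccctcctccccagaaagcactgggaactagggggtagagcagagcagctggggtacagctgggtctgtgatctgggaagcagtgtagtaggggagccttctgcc

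The *Cd3d* window contained no CG dinucleotide and *Ptcra* contained 1, whereas *Cd247* contained 3, *Cd3g* 4 and *Cd3e* 7. The observed over expected CpG ratio was 0 for *Cd3d*, 0.0451 for *Ptcra*, 0.242 for *Cd3g*, 0.283 for *Cd247* and 0.344 for *Cd3e*. All 5 were below the median of 0.374 over 32848 promoter windows of the same length, and the *Cd3e* window lay close to it, with 47.2% of windows lower. Motifs were searched on both strands as plain letters. The E-box CANNTG, bound by E proteins and their relatives, occurred in all 5 windows, 3 times in *Cd3g*, once each in *Cd3d* and *Cd3e*, and 2 times each in *Cd247* and *Ptcra*, and 66.2% of all 32851 windows contained it. TGGGAA, the core letters bound by RBPJ, the DNA-binding partner of Notch, occurred once in *Cd3g*, once in *Cd3e* and 2 times in *Ptcra*, in all 4 cases on the printed strand, and 21.6% of all windows contained it. The *Cd3g* match, 174 bases before the start, overlapped an E-box that began 178 bases before it. CTTTGA, the core of TCF7 and LEF1 sites, occurred 2 times in *Cd3d* only, 73 and 54 bases before the start, against 13.8% of all windows. The Runx core TGTGGT (14.05% of windows) and TATAAA (12.4%) occurred in none of the 5. These are matches of letters and no binding was measured.

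Depth did not limit the detection of the chains in the DN2 cells but did in the control. Gene totals per library ranged from 12354635 to 35367925 counts, and 3 counts, taken as the floor, corresponded to between 0.0848 and 0.243 CPM per library. CPM (counts per 1e6 counts) was computed over gene rows. A further 16.4% to 30.1% of reads per library had been set aside as not uniquely aligned. In these bulk samples fewer expressing cells and less RNA per cell cannot be told apart.

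*Cd3g*, the gamma chain, had the highest level per kilobase of exon of the 5 in every DN library. In the control it stood at 0.0969, 0.119, 0.0565 and 0.202 CPM in D1, D2, R1 and R2, from 2 to 6 reads each. In DN1 it had 36.2 CPM in 2012 and 104 CPM in 2013, in DN2a 757 and 499 CPM, and in DN2b 1968 and 1244 CPM. The 4 groups did not overlap, and the lowest DN1 library stood far above the highest control library. At DN1 it had reached 1.84% of the DN2b level of the same year in 2012 and 8.37% in 2013, and at DN2a 38.5% and 40.1%.

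*Cd3d*, the delta chain and the divergent neighbour of *Cd3g*, lagged behind it. The control had 0.388, 0.316, 1.92 and 0.202 CPM in D1, D2, R1 and R2. DN1 had 0.839 CPM in 2012 and 8.17 CPM in 2013, DN2a had 50.8 and 65.0 CPM, and DN2b had 327 and 580 CPM. The 2012 DN1 library lay below the R1 control library, so DN1 and the control overlapped for this chain, whereas DN2a and DN2b stood clear of both. At DN1 *Cd3d* had reached 0.257% of its DN2b level in 2012 and 1.41% in 2013, and at DN2a 15.5% and 11.2%.

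*Cd3e*, the epsilon chain, which pairs with both the gamma and the delta chain, had no read in any of the 4 control libraries. It stood at 1.63 and 2.06 CPM in DN1, 22.4 and 14.4 CPM in DN2a, and 92.4 and 113 CPM in DN2b, for 2012 and 2013. The groups were separate and at DN1 it had reached 1.77% and 1.81% of the DN2b level of the same year, whereas at DN2a the years differed, at 24.3% and 12.8%.

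*Cd247*, the zeta chain, had 0.0485, 0.0395, 0.283 and 0.0674 CPM in D1, D2, R1 and R2, of which the highest value rested on 10 reads. DN1 had 0.839 and 0.595 CPM, DN2a had 21.4 and 14.4 CPM, and DN2b had 59.6 and 52.8 CPM. The rise from DN1 to DN2a was nearly the same in both years, 25.5-fold in 2012 and 24.3-fold in 2013. It was the only chain of the 5 that stayed under 1 CPM in both DN1 libraries.

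*Ptcra* followed none of the CD3 chains. The control had 0.436, 0.435, 0.424 and 0.337 CPM in D1, D2, R1 and R2. DN1 had 6.41 CPM in 2012 and 11.5 CPM in 2013, DN2a had 11.4 and 2.16 CPM, and DN2b had 39.4 and 6.96 CPM. All DN libraries were above all control libraries, but the DN stages overlapped and the years parted in opposite ways. The 2012 level was 0.559 times the 2013 level in DN1, 5.29 times in DN2a and 5.66 times in DN2b. From DN2a to DN2b, which share a label date within each year, the *Ptcra* ratio was 3.46 in 2012 and 3.23 in 2013, whereas its ratio of DN2a to DN1 was 1.78 in 2012 and 0.188 in 2013.

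**Figure D1:**
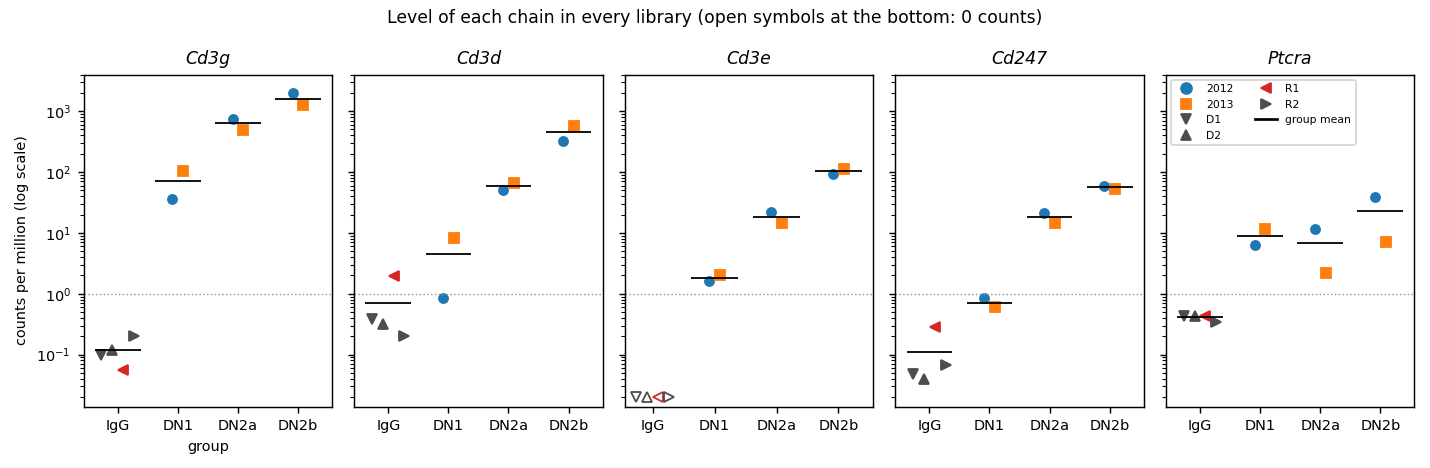
CPM on a log scale (vertical) for each gene in every library, by group (horizontal), with 2012 and 2013 DN libraries as blue circles and orange squares, control libraries as triangles (R1 in red), black lines for group means and a dotted line at 1 CPM. The group means of the CD3 chains are higher at each step, from 0 reads in the control for *Cd3e*, while the *Ptcra* libraries of the 3 DN stages overlap.

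Onset was read as the earliest group, in the order control, DN1, DN2a and DN2b, in which every library had at least 1 CPM. By this rule *Cd3g*, *Cd3e* and *Ptcra* came on at DN1, and *Cd3d* and *Cd247* at DN2a. The order depended on the level asked for. At 0.5 CPM all 5 genes came on at DN1, whereas at 5 CPM only *Cd3g* and *Ptcra* did, and without the 2012 DN1 library *Cd3d* also came on at DN1. Relative to its own DN2b mean, *Ptcra* was the furthest along at DN1, at 27.6% and 49.4%, *Cd3g* followed at 2.26% and 6.48%, and *Cd3d*, *Cd3e* and *Cd247* were lower in both years.

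**Figure D2:**
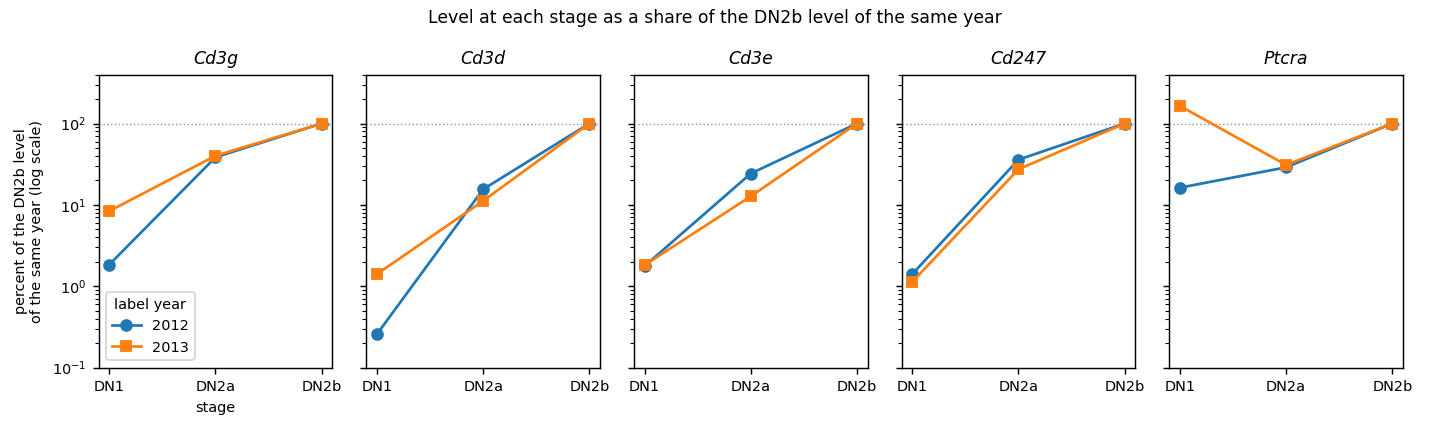
Level of each gene at DN1, DN2a and DN2b (horizontal) as a percent of the DN2b level of the same year (vertical, log scale), with 2012 as blue circles and 2013 as orange squares. *Cd3e* and *Cd247* start at shares that lie close together in both years, *Cd3g* and *Cd3d* start higher in the 2013 DN1 library, and *Ptcra* starts at 164.7% in 2013 against 16.3% in 2012.

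The comparison of DN1 with the control asks which chains respond before CD25 appears. Of the 5 genes, 4 were higher in DN1 by the quasi-likelihood test of edgeR, with p-values adjusted over all genes by the Benjamini-Hochberg method, where 14.3% of the 12221 genes were called higher. The median log2 fold change over the 5 genes was 4.18, or 4.04 with *Cd3e* at its lower bound, against 0.01 over all genes. *Cd3g* rose by a log2 fold change of 8.94 ± 0.58 (standard error; adjusted p = 5.63e-05) and *Ptcra* by 4.18 ± 0.77 (adjusted p = 0.00451). *Cd3e* was at least 16.4-fold higher in DN1, counting 3 reads in each control library (adjusted p = 0.000461). *Cd247* rose by 2.28 ± 0.59 (adjusted p = 0.0190). That call was lost without the 2012 DN1 library (2.08), without the 2013 DN1 library (2.44) and with only R1 and R2 as control (1.78, adjusted p = 0.0613). All DN1 and control libraries were under 1 CPM for *Cd247*, so it entered the test through its DN2 levels. In a fit of only the groups compared it was not tested. *Cd3d*, at 2.37 ± 0.92, did not pass (adjusted p = 0.0786), whereas DESeq2 called it (2.39, adjusted p = 0.0252). Its value turned on single libraries, since by edgeR it was -0.14 without the 2013 DN1 library (adjusted p = 0.939), 3.25 without the 2012 DN1 library (0.0273) and 3.65 without the R1 control (0.0225). The sources call the LSK isolates independent but the labels do not name them, so these p-values measure the spread between these libraries.

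Markers of other cells moved with this comparison. The 7 measured myeloid markers summed to between 16803 and 39107 CPM in the control and to 1449 and 130 CPM in the 2012 and 2013 DN1 libraries, and all 7 were called lower in DN1, where 17.0% of all genes were called lower and 14.3% higher. The 5 mast cell markers summed to between 9.95 and 82.6 CPM in the control and to 2453 and 575 CPM in DN1, and the 12 natural killer and innate lymphoid markers to between 12.6 and 165 CPM in the control and to 2513 and 436 CPM in DN1. Of the mast cell markers 3 were called higher, *Cpa3*, *Mcpt4* and *Fcer1a*, and *Tpsb2* was called lower. Of the natural killer and innate lymphoid markers 6 were tested and 2 called higher, *Gzmb*, which alone had 2310 and 249 CPM in DN1, and *Klrd1*, whereas the defining marker *Ncr1* had at most 0.0884 CPM and *Eomes* at most 0.309 CPM in DN1. The 6 plasmacytoid dendritic cell markers summed to between 243 and 404 CPM in the control and to 73.5 CPM in each DN1 library. Of 4 tested, *Bst2* and *Irf8* were called lower and *Ly6d* higher, whereas *Siglech*, which defines these cells, had at most 0.337 CPM in the control and 0.162 CPM in DN1. These cells can transcribe *Ptcra*, and natural killer cells can transcribe CD3 chains and *Cd247*. No CD3 surface stain was part of the sort, and the DN1 gate took KIT++ cells. The 2012 DN1 library was the higher of the pair for the myeloid, mast cell and natural killer lists and the lower for *Cd3g*, *Cd3d*, *Cd3e* and *Ptcra*, whereas *Cd247* was higher in 2012. The part of these cells in the DN1 values was not tested.

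The step from DN1 to DN2a asks which chains rise as CD25 appears. In this step 3 of the 5 genes were called higher, against 0.196% of all genes, and the median log2 fold change of the 5 was 3.50 against -0.03 over all genes. *Cd247* had the lowest adjusted p and rose by 4.83 ± 0.66 (edgeR, adjusted p = 0.0286), followed by *Cd3e*, by 3.50 ± 0.38 (adjusted p = 0.0370), and *Cd3g*, by 3.32 ± 0.56 (adjusted p = 0.0499). *Cd3d* had the value 3.85 ± 1.13 and did not pass (adjusted p = 0.250), whereas DESeq2, which called 474 genes, called it (3.83, adjusted p = 0.00845). Its ratio of DN2a to DN1 was 60.5 in 2012 and 7.95 in 2013. *Ptcra* had the value -0.24 ± 0.86 (adjusted p = 0.948), with opposite signs in the 2 years. All 3 calls were near the threshold, and none remained without the 2012 DN1 library, without either DN2a library or without either DN2b library. The *Cd3g* call held in 4 of 17 alternatives, and was lost with library size scaling (adjusted p = 0.0506), without any 1 of the control libraries (0.0635 to 0.0843), and on the DN libraries alone both without a block (0.112) and with the label year as a replicate block (0.168). The comparisons of DN1 with the control and of DN2a with DN1 share the DN1 libraries. Markers of other cells differed in this step too. The myeloid sum stood at 9.29 and 37.3 CPM in DN2a against 1449 and 130 CPM in DN1, with 2 of 7 markers called lower, where 0.205% of all genes were. The mast cell sum stood at 384 and 554 CPM in DN2a against 2453 and 575 CPM in DN1, and none of its 5 markers was called by edgeR, while 2 had an unadjusted p under 0.05. The natural killer and innate lymphoid sum stood at 538 and 656 CPM in DN2a against 2513 and 436 CPM in DN1. It was thus lower in DN2a in 2012 and higher in 2013, and edgeR called none of its 6 tested markers. The part of these cells in the step was not tested.

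The step from DN2a to DN2b, the passage at which cells are held to commit to the T lineage, gave higher values in DN2b for all 5 genes in both years but no call. None of the 5 passed edgeR's adjusted threshold, and the share of all genes called higher was 0%. At an unadjusted p under 0.05 there were 335 genes, among them 4 of the 5, and DESeq2 called 29 genes, among them *Cd3e*. The log2 fold changes were 2.95 ± 1.07 for *Cd3d*, 2.48 ± 0.35 for *Cd3e*, 1.81 ± 0.89 for *Ptcra*, 1.65 ± 0.56 for *Cd247* and 1.36 ± 0.52 for *Cd3g*. The lowest adjusted p was that of *Cd3e*, 0.566 by edgeR. Within a label year the ratio of DN2b to DN2a was 6.44 in 2012 and 8.93 in 2013 for *Cd3d*, whereas for *Cd3g* it was 2.60 and 2.49. It was 4.12 and 7.84 for *Cd3e*, 2.78 and 3.65 for *Cd247*, and 3.46 and 3.23 for *Ptcra*. The log2 fold change of *Ptcra* turned on single libraries, at 0.020 without the 2012 DN2b library, 2.58 without the 2013 DN2b library, 3.39 without the 2012 DN2a library and 1.08 without the 2013 DN2a library. The summed mast cell markers stood at 384 and 554 CPM in DN2a and 251 and 462 CPM in DN2b, and *Gzmb* at 346 and 426 CPM in DN2a and 88.1 and 113 CPM in DN2b, whereas the mean of *Nkg7* was 200.3 CPM in DN2a and 225 CPM in DN2b. By edgeR no marker of either list was called in this step, as no gene was.

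Over both steps together, DN2b against DN1, 4 of the 5 genes were called higher, where 1.01% of all genes were. The log2 fold change was 6.80 ± 1.29 for *Cd3d* (edgeR, adjusted p = 0.0340), 6.48 ± 0.70 for *Cd247* (0.00340), 5.98 ± 0.42 for *Cd3e* (0.00340) and 4.68 ± 0.60 for *Cd3g* (0.00704). *Cd3g*, the chain that was already well above the control at DN1, had the smallest of the 4 changes. The *Cd3d* call was lost without the 2012 DN1 library (5.91), without either DN2a or either DN2b library, and in a fit of only the groups compared (adjusted p = 0.0917). Over the alternatives its fold change ranged from 5.91 to 9.32. The same-year ratio of DN2b to DN1 was 389 in 2012 and 71.0 in 2013 for *Cd3d*, and 54.3 and 11.9 for *Cd3g*. It was 56.5 and 55.1 for *Cd3e* and 71.1 and 88.7 for *Cd247*. The *Cd3g* call was lost in the fit of only the groups compared (adjusted p = 0.0547) and with the replicate block (0.0502). *Ptcra* had the value 1.57 ± 0.88 and did not pass (adjusted p = 0.492), and its DN2b to DN1 ratio was 6.15 in 2012 and 0.607 in 2013. Of the markers of other cells, 5 of 7 myeloid and 2 of 5 mast cell markers were called lower in DN2b than in DN1, where 0.892% of all genes were. The plasmacytoid dendritic cell list summed to 73.5 CPM in each DN1 library and to 173 and 155 CPM in DN2b. Of its 4 tested markers *Ly6d* was called higher at 4.49 (edgeR, adjusted p = 0.0401), and *Siglech* had no read in DN2b. *Mcpt4*, a mast cell protease gene, had 954 and 144 CPM in DN1, 4.15 and 0.790 CPM in DN2a, and 0.260 and 1.13 CPM in DN2b. Their part in these differences was not tested.

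Against the control, all 5 genes were called higher in DN2a, where 21.2% of all genes were, and all 5 in DN2b, where 19.9% were. In DN2b the log2 fold change was 13.63 ± 0.65 for *Cd3g* (edgeR, adjusted p = 1.01e-05), 9.17 ± 1.05 for *Cd3d* (0.000338), 8.76 ± 0.59 for *Cd247* (2.14e-05) and 5.75 ± 0.80 for *Ptcra* (0.000809). *Cd3e* was at least 914-fold higher (adjusted p = 2.05e-05). *Ptcra* thus had the smallest change over the control of the 5, and its call in DN2a was lost without the 2012 DN2a library (adjusted p = 0.0690). Among markers of other cells, the mast cell list summed to 251 and 462 CPM in DN2b against 9.95 to 82.6 CPM in the control, with *Cpa3* called higher at 3.29 (adjusted p = 0.00755) and 3 of the 5 markers called lower. The natural killer and innate lymphoid list summed to 309 and 359 CPM against 12.6 to 165 CPM, with *Gzmb* called higher at 7.21 (adjusted p = 0.000270), *Klrd1* called higher at 3.29 (adjusted p = 0.00779) and none of the 6 tested called lower. Of the plasmacytoid dendritic cell markers, *Ly6d* was called higher at 9.24 (edgeR, adjusted p = 0.000129) and *Irf8* lower at -4.02 (adjusted p = 6.03e-05). The part of these cells in the DN2b values was not tested. By DN2b the myeloid markers summed to 5.40 and 10.8 CPM. The 6 B cell markers summed to 2.02 and 8.18 CPM, against 1.72 to 3.39 CPM in the control. *Pax5* and *Ms4a1* were at 0 in DN2b, whereas *Ebf1* ranged from 0 to 4.53 CPM. Of the 2 B cell markers tested, *Vpreb1* was called higher at 3.96 (edgeR, adjusted p = 0.00176) and *Cd22* lower at -2.84 (adjusted p = 0.0200). *Cd4*, *Cd8a* and *Cd8b1*, markers of later T cells, had at most 0.567 CPM each, with *Cd40lg* at 0. *Ccr7*, also on that list, had 39.0 to 62.8 CPM in DN2b and 0.877 to 54.0 CPM in the control, a value of 1.45 that did not pass (adjusted p = 0.366).

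The proportions of the chains to one another were followed within each DN library, where no scaling between libraries enters. Each value is the log2 ratio of 2 counts, each with 0.5 added, without correction for gene length, so only its movement over the stages is read. The ratio of *Cd3g* to *Cd3d* was lower at each step in both years, at 5.39, 3.90 and 2.59 in 2012 and 3.67, 2.94 and 1.10 in 2013. For these 2 genes, which share a divergent start region, the difference in log2 ratio between DN2b and DN1 was -2.80 in 2012 and -2.57 in 2013. The slope of this ratio was -1.34 per stage (exact two-sided permutation test over 90 assignments, p = 0.0444, adjusted over 10 pairs p = 0.111).

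All 10 pairs were tested and none passed after adjustment. The smallest p that the 6 libraries allow is 0.0222, at which a single pair of 10 cannot pass the adjustment, and which the ratio of *Cd3g* to *Cd247* reached with a slope of -0.80 per stage (exact permutation, adjusted p = 0.111). Its DN2b minus DN1 difference was -2.83 in the 2013 libraries, against -0.35 in 2012. *Cd3d* to *Ptcra* had a slope of 3.20 per stage (exact permutation p = 0.0444, adjusted p = 0.111) and DN2b minus DN1 differences of 5.95 in 2012 and 6.86 in 2013. *Cd3e* to *Ptcra* had a slope of 2.42 per stage with the same p and adjusted p. *Cd3e* to *Cd247* had the slope closest to 0, -0.24 per stage (exact permutation p = 0.533), with stage means of 1.34, 0.03 and 0.87. *Cd3d* to *Cd247* had an equal p with a slope of 0.55, but its DN1 libraries were 3.72 log2 units apart.

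**Figure D3:**
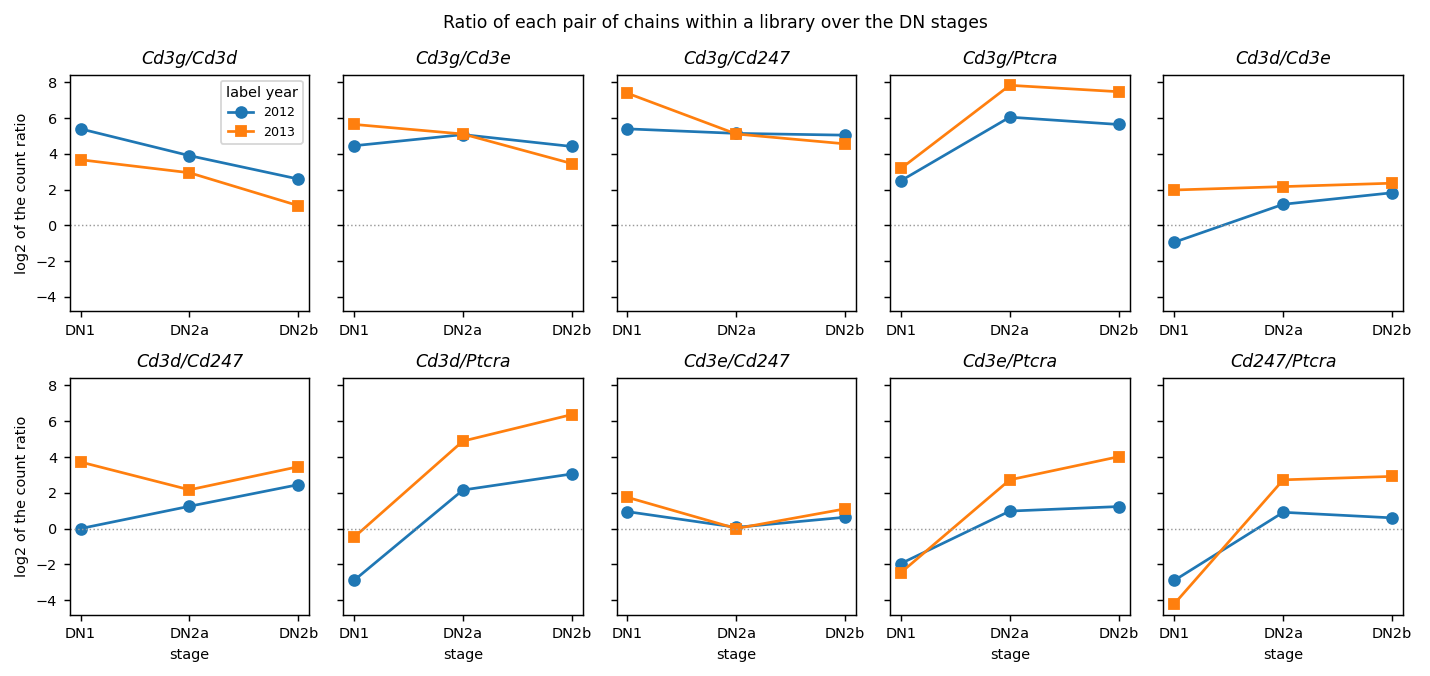
Log2 ratio of the counts of each of the 10 pairs of genes (vertical) at DN1, DN2a and DN2b (horizontal), with 2012 as blue circles, 2013 as orange squares and a dotted line at equal counts. *Cd3g* to *Cd3d* is lower at every step in both years, *Cd3e* to *Cd247* stays between 0 and 1.74, and the pairs with *Ptcra* are higher at DN2a than at DN1 in both years.

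Levels of different genes were compared per kilobase (kb) of exon. In DN2b *Cd3g* had 491 ± 157 CPM per kb (SD, n = 2), *Cd3d* 250 ± 98.7, *Cd3e* 25.2 ± 3.61, *Ptcra* 18.1 ± 17.9 and *Cd247* 10.5 ± 0.91. *Cd3g* and *Cd3d* thus lay above the others by more than their spread but did not differ from each other beyond it, and *Ptcra* did not differ beyond its spread from *Cd3e* or *Cd247*. Within each library, however, *Cd3g* was above *Cd3d*, at 602 against 180 CPM per kb in 2012 and 380 against 320 in 2013. With RefSeq exon length the first pair stood apart, at 1570 ± 501 against 280 ± 111, and so did *Cd3e*, at 70.3 ± 10.1, from *Ptcra*, which kept its value. In DN1 the order was *Cd3g* at 21.5 ± 14.7, *Ptcra* at 6.96 ± 2.79, *Cd3d* at 2.48 ± 2.85, *Cd3e* at 0.452 ± 0.073 and *Cd247* at 0.135 ± 0.032 CPM per kb. Here *Ptcra* held the second place, although its spread and that of *Cd3g* and *Cd3d* were wide, and *Cd3d* did not differ from *Ptcra* or *Cd3e* beyond the spread. Within each DN1 library *Cd3d* lay between *Ptcra* and *Cd3e*. The levels of *Ptcra*, *Cd3d* and *Cd3e* were 4.99, 0.462 and 0.401 in 2012, and 8.94, 4.50 and 0.504 in 2013.

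The place of the lower 3 genes in DN2b, and which genes stood apart beyond the spread, depended on the length used. Of the exon bases of *Cd247*, 60.3% also lie in exons of other genes, chiefly the opposite-strand gene *Pou2f1*, which has its own row, and reads there may have been left uncounted, because the strand setting of the counting is not given in the sources used here. Dividing the whole *Cd247* count by only its exon bases outside other genes gave 26.6 ± 2.30 CPM per kb in DN2b, next to 26.1 ± 3.73 for *Cd3e*. That value holds only if no counted read came from the shared bases, and is otherwise too high. With coding length, *Cd3g* stood at 2941 ± 938, *Cd3d* at 874 ± 345, *Cd3e* at 181 ± 25.9, *Cd247* at 91.0 ± 7.86 and *Ptcra* at 37.5 ± 37.1 CPM per kb, each apart from the next by more than the spread. *Cd3g* and *Cd3d* kept the top places with every length tried.

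The genes with the most similar course over the 10 libraries were found by the root mean square (RMS) difference of centred log2(CPM + 0.5) among 10494 other genes. For *Cd3e* they were *Tmtc2* (RMS difference 0.40 log2 units), *Txk* (0.57), a TEC family kinase of T cells, and *Mpzl2* (0.58), an adhesion molecule, and *Cd247* came next (0.58). For *Cd247* they were *Epcam* (0.44), an epithelial adhesion molecule, *Vat1l* (0.45) and *Rasgrp1* (0.46), which activates RAS below the TCR, and *Cd3e* was the fifth. For *Cd3d* they were *Tnfsf11* (0.79), the cytokine RANKL, *Cd3e* (0.91) and *Mpzl2* (0.94). For *Cd3g* they were *Gzma* (1.01), a granzyme, *Il2ra* (1.15), which encodes the CD25 used in the sort, and *Lck* (1.29), and the nearest of the other chains, *Cd3e*, ranked 35.

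For *Ptcra* the closest were *Rag2* (0.52) and *Rag1* (0.72), the recombinase genes that rearrange the TCR loci, and then *Slc9a2* (0.72), a sodium and proton exchanger. No CD3 chain ranked above 4862 for *Ptcra*. The recombinase genes were picked for their closeness to *Ptcra* over these same libraries, so a shared pattern by year is in part built into the choice. *Rag1* had 34.7 CPM in 2012 and 8.42 CPM in 2013 in DN2b, and 9.11 and 2.08 CPM in DN2a. In DN1 *Rag1* had 0.928 CPM in 2012 and 3.52 CPM in 2013, so the years were reversed there. *Rag2* had 13.3 and 3.48 CPM in DN2b, 7.36 and 2.52 CPM in DN2a, and 2.47 and 3.19 CPM in DN1. The year and the cells sorted in it cannot be told apart.

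The genes around the 3 loci were read in the same fit. Of 14 tested flanking genes, 4 were called higher and 2 lower in DN2b over the control, where 19.9% of all genes were called higher and 22.5% lower. *Ube4a*, a ubiquitin ligase gene whose start is 14.8 kb from that of *Cd3g*, had 54.4, 40.5, 56.5 and 86.4 CPM in the control and 104 and 80.7 CPM in DN2b, a log2 fold change of 0.59 ± 0.28 that did not pass (edgeR, adjusted p = 0.112). *Mpzl2*, whose start is 59.4 kb away on the side of *Cd3e*, stood at 0, 0.0791, 0.0283 and 0 CPM in the control, 0.663 and 5.90 CPM in DN1, 34.9 and 10.3 CPM in DN2a, and 99.7 and 86.0 CPM in DN2b. It was called higher in DN1 than in the control (adjusted p = 0.00318), whose libraries had 2 reads or fewer, and rose from DN1 to DN2b by 4.98 ± 1.03 (adjusted p = 0.0472). The next gene beyond it, *Mpzl3*, had a DN2b over control value of 0.62 (adjusted p = 0.645), and *Atp5l*, 59.7 kb away on the side of *Cd3g*, was called higher at 1.10 (adjusted p = 0.00626). Around *Ptcra*, *Cnpy3* was called lower at -1.59 (adjusted p = 0.00136), and *2310039H08Rik* and *Pex6* were called higher at 1.62 (adjusted p = 0.00693) and 0.75 (adjusted p = 0.0122). Beside *Cd247*, *Creg1* was called lower at -1.76 (adjusted p = 0.0154). *Pou2f1*, which overlaps *Cd247* on the opposite strand, had 0.18 (adjusted p = 0.703).

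**Figure D4:**
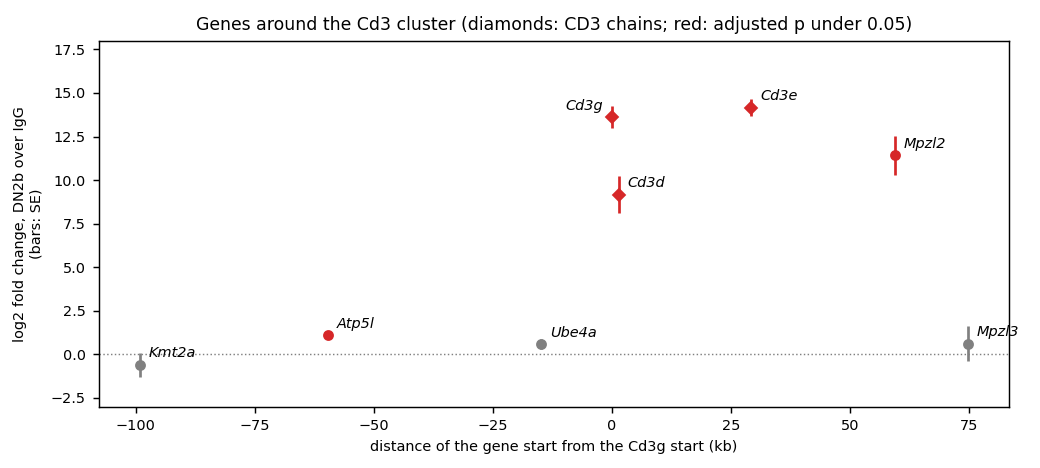
Log2 fold change of DN2b over the control (vertical, bars are the standard error) against the distance of each gene's start from that of *Cd3g* in kb (horizontal), with CD3 chains as diamonds, other genes as circles and red for an adjusted p under 0.05. The CD3 chains and *Mpzl2* stand above 9, while *Atp5l* was called at 1.10, *Ube4a* and *Mpzl3* stand at 0.59 and 0.62 and were not called, and the fitted value of *Cd3e* rests on a control with 0 reads.

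Genes that act on the CD3 chains or relay their signal were taken as a list of 22, of which 19 were tested. In DN1 over the control 11 of the 19 were called higher and 3 lower, where 14.3% of all genes were called higher and 17.0% lower, with a median log2 fold change of 2.11 against 0.01 over all genes. The share called lower was thus near that over all genes. *Lck*, whose kinase phosphorylates the ITAMs, rose by 5.46 ± 0.58 (edgeR, adjusted p = 0.000465) and the adaptor gene *Lat* by 4.40 ± 0.55 (adjusted p = 0.000848). *Trat1*, a transmembrane adaptor that associates with the receptor complex, rose from 0, 0, 0.0565 and 0 CPM in the control to 6.05 and 10.2 CPM in DN1 (edgeR, adjusted p = 7.87e-05), and *Zap70* from 0, 0, 0.0848 and 0.0337 CPM to 0.972 and 1.03 CPM (adjusted p = 0.00699). No fold is given for either, since no control library had more than 3 reads. *Syk*, the relative of ZAP70 that also serves B cell and myeloid receptors, fell by 2.01 on the log2 scale (adjusted p = 0.00380). *Cd28*, the co-stimulatory receptor, fell by 4.60 (adjusted p = 0.00127), from 58.2, 32.9, 66.6 and 29.1 CPM in the control to 1.41 and 3.25 CPM in DN1.

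From DN1 to DN2a 2 of the 19 were called higher, against 0.196% of all genes, *Trat1* by 3.12 ± 0.50 (edgeR, adjusted p = 0.0459) and *Themis*, which encodes a signalling protein of thymocytes (adjusted p = 0.0499). *Themis* had 0 and 0.0541 CPM in DN1, 3.82 and 4.46 CPM in DN2a, and 7.15 and 18.3 CPM in DN2b. From DN2a to DN2b none of the 19 was called by edgeR, as no gene of the table was, and 2 of them had an unadjusted p under 0.05. Over both steps 4 of the 19 were called higher, *Themis*, *Trat1*, *Grap2* and *Cd28*, against 1.01% of all genes, and the median of the list was 0.65 against -0.02 over all genes. *Cd28* had 22.4 and 39.2 CPM in DN2b, which overlapped the control, and its value in DN2b over the control was -0.71 (adjusted p = 0.269). *Lck* reached 435 and 294 CPM at DN2a and 590 and 299 CPM at DN2b, and *Zap70* had 2.99 and 3.97 CPM at DN2b. The genes of the TCR alpha, beta, gamma and delta constant regions were looked for by symbol and had no value used here.

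**Figure D5:**
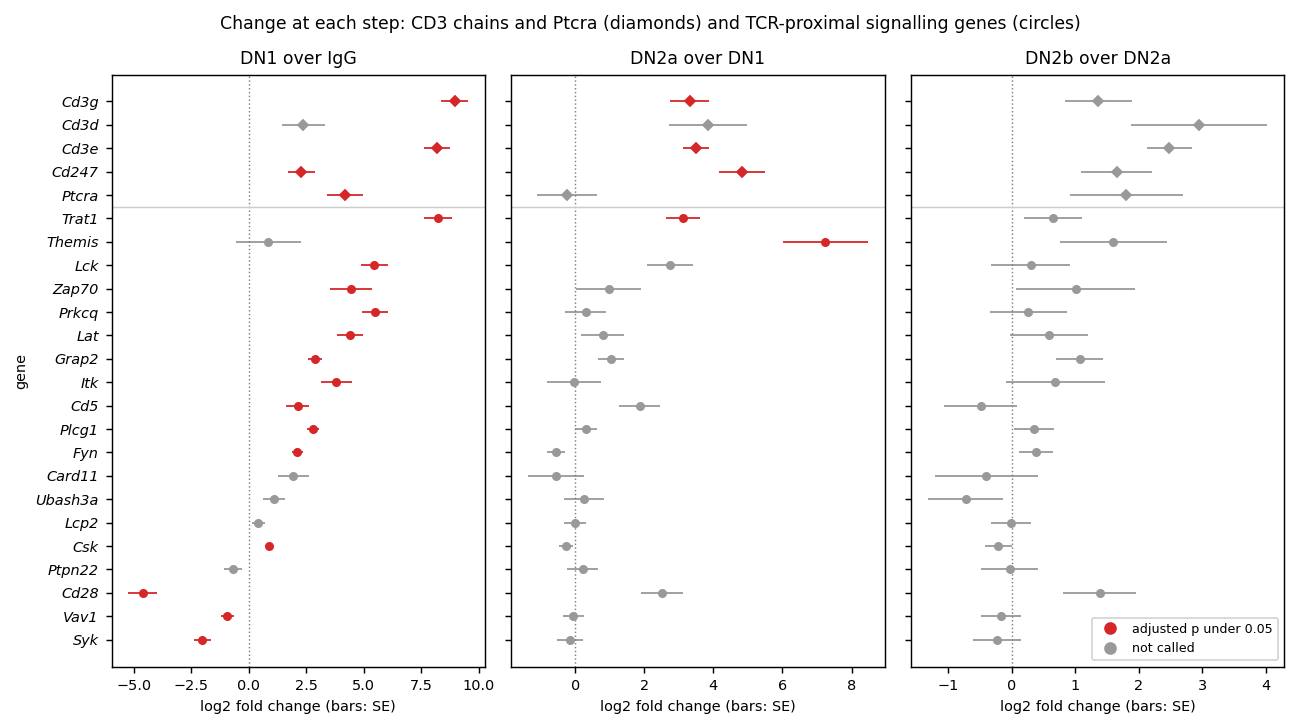
Log2 fold change with its standard error (horizontal) for the CD3 chains and *Ptcra* (diamonds) and the 19 tested TCR-proximal signalling genes (circles) at the steps control to DN1, DN1 to DN2a and DN2a to DN2b, in red where the adjusted p was under 0.05. In the earliest step 4 of 5 chains and 14 of 19 signalling genes are red, in the middle step 3 and 2, and in the last step none.

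Other ITAM-bearing and related adaptors were taken as a list of 5, of which 4 were tested. In DN1 over the control none was called higher and 2 lower, where 14.3% of all genes were called higher and 17.0% lower, with a median of -1.60 against 0.01. *Fcer1g*, the Fc receptor gamma chain, fell from between 375 and 756 CPM in the control to 169 and 45.8 CPM in DN1 (log2 fold change -2.78 ± 0.84, edgeR, adjusted p = 0.0324). *Tyrobp*, which encodes DAP12, stood at 481 to 1026 CPM in the control, 293 and 283 CPM in DN1, 60.0 and 135 CPM in DN2a, and 12.0 and 39.6 CPM in DN2b. Its level fell from the control to DN1 (log2 fold change -1.80 ± 0.58, adjusted p = 0.0411) and from DN1 to DN2b (-3.31 ± 0.67, adjusted p = 0.0426).

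Notch targets and T-lineage regulators were read beside the chains. All 6 Notch targets tested were called higher in DN1 over the control, with a median log2 fold change of 5.89, and edgeR called none between DN1 and DN2b, where the median was 0.53 and 0 had an unadjusted p under 0.05. *Hes1*, for example, had 50.3 and 57.5 CPM in DN1 and 44.0 and 67.7 CPM in DN2b. Of 14 tested T-lineage regulators, 5 were called higher and 2 lower in DN1 over the control, where 14.3% and 17.0% of all genes were, and 3 were called higher, *Bcl11b*, *Ets1* and *Gata3*, in DN2b over DN1, where 1.01% of all genes were. The 2 of 14 called lower were near the share over all genes, and *Bcl11b* and *Gata3* were called higher in both comparisons. *Tcf7* stood at 284 and 272 CPM in DN1 and 536 and 510 CPM in DN2b, a change of 1.11 that did not pass (edgeR, adjusted p = 0.425). *Bcl11b*, the commitment factor, rose from 2.69 and 1.41 CPM in DN1 to 25.2 and 19.7 CPM in DN2b (log2 fold change 3.66 ± 0.60, edgeR, adjusted p = 0.0205).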

How the data were processed

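Libraries were made from column-purified RNA with a stranded total RNA kit (TruSeq). Per the study's methods, the first 36 bases of the first read were aligned to mm10 with TopHat2 2.12, and genes were counted with HTSeq 0.6.1p1 in the intersection-strict mode, in which a read must lie wholly within 1 gene's exons. The gene annotation and strand setting are not given in the sources used here. The deposited values are raw read counts per gene, made by the authors, with 5 summary lines per file that were dropped.

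Groups came from the differentiation label. A gene entered the fits when 2 or more libraries reached 1 CPM (12221 of 18854 with any count). Fits used edgeR 4.0.16 in R 4.3.3 (TMM scaling, quasi-likelihood test, 4 groups, all 10 libraries), with calls at a Benjamini-Hochberg adjusted p under 0.05 over all genes tested, and standard errors taken from the fold change and F statistic. The common dispersion was 0.189. Chain ratios were tested by exact two-sided permutation in Python 3.11.15. Alternatives were DESeq2 1.42.0, library size scaling, other filters, other sets of libraries, each library left out in turn and the label year as a replicate block. The fits were tested on simulated counts.

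The chains were named by the choice of genes, and the lists were a fixed set of pathway and marker genes, with neighbours and genes of similar course (3 for each chain, expressed at a group mean of at least 5 CPM) named by rule. Flanking genes were the 3 listed genes on either side of each locus. The members and lists were chosen with earlier results of these data known. Lengths, positions and overlaps came from GENCODE vM21 and promoters from RefSeq. Protein features were not analysed here. The study's methods say that DN stages were isolated from each LSK replicate. DN2a and DN2b of a year share a label date and are paired by it, whereas DN1 shares only the year. The correlation of same-year deviations over 12221 genes was 0.277 for DN2a with DN2b, 0.298 for DN1 with DN2b and 0.079 for DN1 with DN2a.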

Additional observations from a re-analysis of the deposited data

Results flagged for a closer look

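Among the 4 control libraries, 3 values of the chains stood apart from the other 3 libraries by Dixon's ratio of gap to range, which by chance flags about 1 in 20 groups. The R1 library had the highest *Cd3d* level, 1.92 CPM from 68 reads (ratio 0.892), and the highest *Cd247* level, 0.283 CPM from 10 reads (ratio 0.885). The R2 library had the lowest *Ptcra* level, 0.337 CPM from 10 reads (ratio 0.879). D1, D2 and R1 had 9, 11 and 15 *Ptcra* reads, and the ratio takes no account of the sampling of so few reads. R1 had no read of *Cd3e* and the lowest *Cd3g* level of the 4, 0.0565 CPM. Without R1 *Cd3d* passed the test in DN1 over the control (log2 fold change 3.65, edgeR, adjusted p = 0.0225). The *Cd247* value in that comparison was 2.28 with R1 and 3.38 without it (adjusted p = 0.00236).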

How the results depend on the processing

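The number of the 5 genes called kept within 1.5 times its value under all alternatives in DN1, DN2a and DN2b over the control. For DN2a over DN1 it was 3, became 4 with DESeq2 (*Cd3d* added), fell to 1 in a fit of only the groups compared, and ranged from 0 to 3 when each library was left out in turn. For DN2b over DN2a it was 0 and became 1 (*Cd3e*) with DESeq2. For DN2b over DN1 it was 4 and became 2 with only the groups compared. Fold changes turned sign only where the main edgeR fit made no call. These were *Cd3d* in DN1 over the control (-0.14 without DN1 replicate 2, up to 3.65), *Ptcra* in DN2a over DN1 (0.33 without DN1 replicate 2 and 0.49 without DN2a replicate 2, down to -1.82) and *Ptcra* in DN2b over DN1 (-0.22 without DN2b replicate 1, up to 2.34), where replicate 1 is 2012 and replicate 2 is 2013. The slope of *Cd3d* to *Cd247* turned to -0.15 without DN1 replicate 1, up to 1.45, and that of *Cd3e* to *Cd247* to 0.086 without DN1 replicate 2, down to -0.49. The cause was not tested. The number of genes with onset at DN1 was 3 and became 5 at 0.5 CPM. The highest DN2b level per kb was 46.6 times the lowest, 78.4 times with coding length, 127 times with RefSeq exons and 27.2 times with bases outside other exons; the last pair was chosen after seeing the data.

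With the label year as a replicate block on the 6 DN libraries, 2 of the 5 genes were called in DN2a over DN1, 0 in DN2b over DN2a and 3 in DN2b over DN1, against 2, 0 and 4 in the same libraries without the block. Permutation of the chain ratios within the block has 36 assignments and a smallest p of 0.0556, above the threshold for every pair. Depth limits the control values, of which only *Cd3d* in R1 rests on more than 15 reads.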
